A study of Mus musculus with 8 samples.

Results

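The genes described here are 43 genes of homologous recombination and of the Fanconi anemia pathway. They were taken as a named list, and a member was kept when its row held 10 or more counts in at least 2 libraries. All 43 met this rule, as did 20860 of the 53697 genes in the table, and all 43 were among the 18322 genes tested.

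RNA was sequenced from tumor cells of 4 mice with MMTV-PyMT mammary tumors, a luminal-like breast cancer model in which the polyoma middle T oncogene is driven in the mammary epithelium by the MMTV promoter. Mice 1 and 2 (PyMT-Dll1GFP) carried a GFP knock-in at Dll1, a ligand of the Notch receptors. Mice 3 and 4 (PyMT-Dll1mCh) carried an mCherry reporter of Dll1 on a bacterial artificial chromosome. All were on the C57BL/6 background. Tumors were digested, cells positive for CD45, CD31 or Ter119 were removed, and the remaining cells were sorted by the reporter, so that each mouse gave 1 Dll1- and 1 Dll1+ library. The PyMT oncogene was present in all 8 libraries. No treatment is given for these mice, no tumor-free cells were part of the comparison, and the age of these 4 mice is not given in the sources used here.

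Homologous recombination repairs a broken chromosome by copying the sister chromatid, and for that reason it acts mainly in cells that are copying or have copied their DNA. The broken ends are cut back, the single strand is coated by RPA, the BRCA proteins load the recombinase, and the recombinase searches for the matching sequence. The Fanconi proteins recognise crosslinks between the strands and hand the resulting breaks to the same machinery. In breast epithelium the pathway is known above all through inherited mutations of its BRCA genes.

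The stretches of DNA just upstream of 5 members are printed here as examples of members that fell and of a member that did not. Each is the 150 bases before the RefSeq start site on GRCm38.p6, written 5′ to 3′ on the strand of the gene. Capitals mark CCAAT, the box bound by the factor NF-Y, and the core of the E2F site, TTNNCGC with CC, CG, GC or GG at the open positions, on either strand. Rpa2 (chr4:132768210-132768359, plus strand), Rad51ap1 (chr6:126939588-126939737, minus strand), Fanca (chr8:123318577-123318726, minus strand) and Brca1 (chr11:101551956-101552105, minus strand) fell in Dll1+ cells, and Rad52 (chr6:119902548-119902697, plus strand) did not.
Rpa2: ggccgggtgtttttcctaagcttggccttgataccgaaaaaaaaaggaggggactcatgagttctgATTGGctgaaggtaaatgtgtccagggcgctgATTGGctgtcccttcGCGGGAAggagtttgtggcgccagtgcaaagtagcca
Rad51ap1: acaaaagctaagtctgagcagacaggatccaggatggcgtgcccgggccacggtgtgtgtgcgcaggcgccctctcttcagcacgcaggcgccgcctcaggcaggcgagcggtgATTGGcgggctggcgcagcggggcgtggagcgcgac
Fanca: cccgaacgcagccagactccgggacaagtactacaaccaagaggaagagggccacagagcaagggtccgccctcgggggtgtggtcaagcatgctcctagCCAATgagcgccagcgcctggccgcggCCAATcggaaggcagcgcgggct
Brca1: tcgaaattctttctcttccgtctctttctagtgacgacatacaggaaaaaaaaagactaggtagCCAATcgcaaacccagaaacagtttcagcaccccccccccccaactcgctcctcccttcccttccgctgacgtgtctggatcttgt
Rad52: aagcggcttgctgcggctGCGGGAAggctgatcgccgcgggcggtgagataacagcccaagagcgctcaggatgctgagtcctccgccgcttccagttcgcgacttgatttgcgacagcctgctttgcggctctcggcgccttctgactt

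Rpa2 held CCAAT boxes 84 and 52 bases before its start and an E2F core at 37 bases. Fanca held a pair of CCAAT boxes, at 50 and 23 bases. Rad51ap1 and Brca1 each held 1 CCAAT box in the printed stretch, and their E2F core lay within the 50 bases after the start, which are not printed. Rad52 held an E2F core at 132 bases and no CCAAT box. In the full windows of 250 bases before and 50 after the start, available for 34 members, 19 members (55.9%) held an E2F core, against 15.9% of 12081 tested genes. CCAAT was found in 22 members (64.7%), against 38.4% of tested genes. The core with a further T before it, a stricter form of the E2F site, was in 5 members (14.7%) and in 3.78% of tested genes, and the CHR element TTTGAA was in 2 members (5.88%) against 12.4%. Among the members with a window, the E2F core was in 10 of the 15 that fell in Dll1+ cells and in 9 of the 19 others. CCAAT was in 10 of 15 and in 12 of 19, unlike the contrast in the printed examples. Bard1, Chek1, Dna2, Eme1 and Fanci fell and held no CCAAT box in the window. Xrcc3 held 6 and Fancf 3, and neither passed the test. The words of E2F and CCAAT can overlap, as in GCGCCAAT. The RefSeq start lay 65533 bases from the start of the gene in GENCODE for Fancc. For Slx4, Fancl, Fanci and Chek1 it lay 2092, 949, 409 and 407 bases away. Whether these windows cover the start used in the tumor cells was not tested. The words found are matches of letters and were not tested.

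Libraries held 27301396 to 123907626 counts, and 3 counts corresponded to 0.0242 to 0.110 CPM, the counts scaled to a common library total. The 43 members together took 0.0564% to 0.0786% of the counts of a library, and the share was lower in the Dll1+ than in the Dll1- library of all 4 mice. Dll1 itself was at 7.61, 13.7, 34.7 and 50.3 CPM in the Dll1- libraries of mice 1 to 4 and at 87.5, 138, 203 and 250 CPM in the Dll1+ libraries, in the direction of the labels. The epithelial marker Epcam lay between 899 and 1240 CPM in all libraries. The Dll1- libraries of the mCh mice stood apart by stromal RNA. The summed CPM of 8 fibroblast genes was 7621 and 21807 there, 3023 and 3277 in the mCh Dll1+ libraries and 997 to 1234 in the 4 GFP libraries. Endothelial, immune and erythroid sums were likewise highest in the Dll1- libraries of the mCh mice, with Ptprc, the gene of CD45, at 10.4 and 12.7 CPM there against 2.88 to 6.39 CPM elsewhere.

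The question of the main comparison was how Dll1+ tumor cells differ from Dll1- tumor cells of the same mouse. Over 4 mice, 18 of the 43 members were lower in Dll1+ cells and 0 were higher at an adjusted p below 0.05 (edgeR quasi-likelihood test with the mouse as a factor), 41.9% of the members against 7.04% of all tested genes called lower, 6.98% called higher and 14% called in either direction. At an unadjusted p below 0.05, 29 members were counted, all of them lower in Dll1+ cells, and 32.4% of tested genes in either direction. DESeq2 called 26 members lower and 0 higher, against 12.2% of tested genes lower. The 8 members that DESeq2 added were Rpa3, Ube2t, Palb2, Chek2, Rad51b, Rad51c, Mre11a and Slx4. The 18 members were at 0.485 to 0.804 times their Dll1- level, with a median log2 fold change of -0.80. Over all 43 members the median was -0.38, and over all tested genes it was -0.00068. Of the 43, 37 had a negative fold change, 32 were lower in 4 of 4 mice, and Rad50 alone was higher in 4 of 4. In 12 members every Dll1+ library lay below every Dll1- library, as it did in 3.33% of tested genes. These are sorted bulk samples, in which fewer cells of a type and less RNA per cell cannot be told apart.

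The calls rested on a term for the mouse or the reporter and on few mice. Without mouse 3, 1 member was lower (1.17% of tested genes), without mouse 1, 2 (0.932%), without mouse 2, 7 (1.97%), and without mouse 4, 17 (7.43%). With no mouse term 0 members and 0 of all tested genes were called, with 19 members and 8.86% of tested genes below an unadjusted p of 0.05, and with the reporter in place of the mouse 16 members were lower (4.18% of tested genes).

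**Figure D1:**
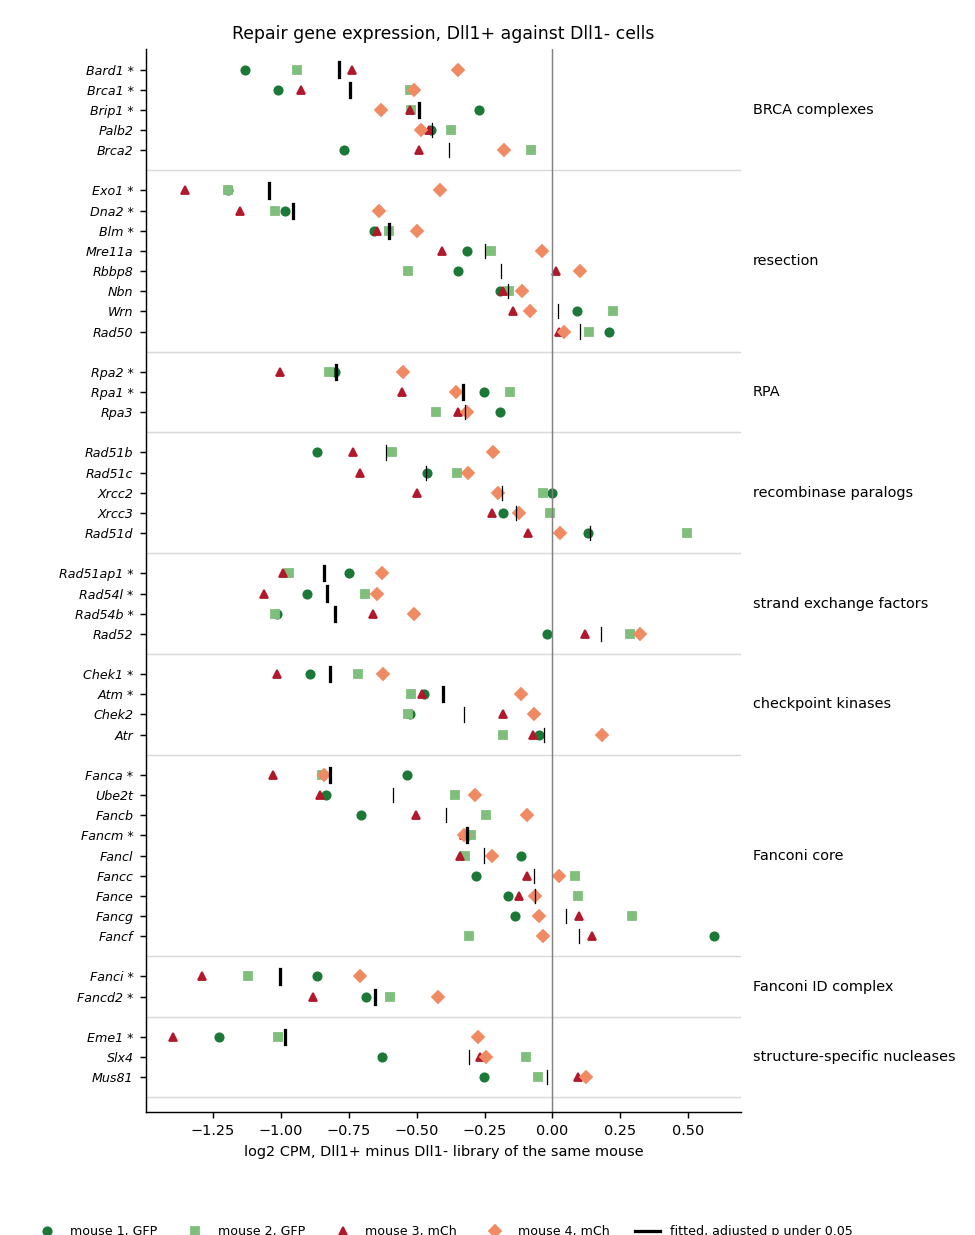
Differences in log2 CPM between the Dll1+ and the Dll1- library of each mouse, for the 43 members in 9 groups of function. Each symbol is 1 mouse, and the vertical bar is the fitted log2 fold change over 4 mice. A star with a thick bar marks the 18 members with an adjusted p below 0.05 over these same mice. All 18 sit left of 0 in every mouse.

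Among the BRCA proteins, which organise the repair site, 3 of 5 members fell and the other 2 had negative fold changes without passing the test. Brca1, a ubiquitin ligase that directs broken ends towards recombination, was at 14.1, 13.1, 14.9 and 15.9 CPM in the Dll1- libraries of mice 1 to 4 and at 6.97, 9.13, 7.80 and 11.1 CPM in the Dll1+ libraries. The Dll1+ libraries all lay below the Dll1- libraries. The mean fell from 14.5 ± 1.17 to 8.76 ± 1.82 CPM (SD, n = 4), with a log2 fold change of -0.74 ± 0.12 (SE) and an adjusted p of 0.0181. Bard1, the partner that Brca1 needs for its ligase activity, fell with a log2 fold change of -0.79 ± 0.17 (adjusted p = 0.0380), and Brip1, a helicase bound by Brca1, with -0.49 ± 0.12 (adjusted p = 0.0438). Brca2, which loads the recombinase on single-stranded DNA, was at 6.18 to 11.4 CPM in Dll1- and at 5.45 to 9.98 CPM in Dll1+ cells, and its log2 fold change of -0.38, with a 95% interval from -0.74 to -0.02, gave an adjusted p of 0.137. Palb2, the bridge between Brca1 and Brca2, was lower by a like amount in each mouse, from -0.38 to -0.48 on the log2 scale, with an adjusted p of 0.0709.

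The members that cut back broken ends divided into a group that fell and a group that did not pass the test. Dna2, a nuclease and helicase of long-range resection, was at 10.4, 10.3, 12.4 and 8.32 CPM in Dll1- cells of mice 1 to 4 and at 5.23, 5.05, 5.55 and 5.32 CPM in Dll1+ cells. Its Dll1+ libraries lay in a narrow range below all Dll1- libraries (log2 fold change -0.96 ± 0.13, adjusted p = 0.0109). Exo1, the exonuclease that works in parallel with Dna2, was at 9.96, 9.57, 15.8 and 12.7 CPM in Dll1- cells and at 4.32, 4.16, 6.15 and 9.57 CPM in Dll1+ cells. It had the lowest fold change of all members, -1.04 ± 0.18 (adjusted p = 0.0197), but the Dll1+ library of mouse 4 reached into the range of the Dll1- libraries. Blm, the RecQ helicase that opens DNA for Dna2, was at 12.4, 11.1, 10.9 and 11.0 CPM in Dll1- cells and at 7.85, 7.27, 6.97 and 7.75 CPM in Dll1+ cells. The difference in Blm was close to even across mice, from -0.50 to -0.66 on the log2 scale (fitted -0.60 ± 0.09, adjusted p = 0.0149). None of the initiating MRN complex passed the test, although Mre11a did so in DESeq2 (adjusted p = 0.0437) and without mouse 4 (adjusted p = 0.0495). Rad50, its structural subunit, had a log2 fold change of 0.10 (95% interval -0.04 to 0.24), Nbn, its signalling subunit, of -0.16 (-0.31 to -0.02), and Mre11a, its nuclease, of -0.25 (-0.44 to -0.06), with adjusted p of 0.273, 0.126 and 0.0891. Wrn, a second RecQ helicase, was at 0.02 (-0.21 to 0.25), and Rbbp8, the cofactor that starts resection, at -0.19 (-0.48 to 0.11).

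RPA, the trimer that coats single-stranded DNA in repair and in replication, had 2 of 3 subunits that fell. Rpa2, the subunit that checkpoint kinases phosphorylate, was at 21.0, 21.2, 43.7 and 30.8 CPM in Dll1- cells of mice 1 to 4 and at 12.03, 11.9, 21.8 and 21.0 CPM in Dll1+ cells. Within each mouse the Dll1+ library was the lower, but the ranges met because both libraries were higher in the mCh than in the GFP mice. Of the members Rpa2 had the lowest p, with a log2 fold change of -0.80 ± 0.09 and an adjusted p of 0.00763. Rpa1, the large subunit, fell by less, from 97.5 ± 23.5 to 76.5 ± 11.2 CPM (SD, n = 4; log2 fold change -0.33 ± 0.08, adjusted p = 0.0416). Rpa1 shares exon sequence with Gm47300 on the same strand, so that its estimated counts are less certain. Rpa3, the small subunit, had the same log2 fold change within its error, -0.32 ± 0.09, and an adjusted p of 0.0623.

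Of the factors that help the recombinase exchange strands, 3 of 4 fell. Of the 5 recombinase paralogs 0 passed the test in edgeR and Rad51b and Rad51c did in DESeq2 (adjusted p = 0.0429 and 0.0433), and the difference between the groups was not tested. Rad51ap1, which stabilises the joined strands, was at 7.06, 9.01, 12.6 and 10.9 CPM in Dll1- cells of mice 1 to 4 and at 4.18, 4.59, 6.32 and 7.03 CPM in Dll1+ cells. The groups did not overlap, although only by a small margin (log2 fold change -0.84 ± 0.12, adjusted p = 0.0121). Rad54l, a motor protein that remodels DNA and chromatin at the exchange, was at 9.11, 8.28, 14.0 and 13.8 CPM in Dll1- cells and at 4.85, 5.12, 6.67 and 8.81 CPM in Dll1+ cells. Mouse 4 had a Dll1+ level within the range of the Dll1- libraries of the GFP mice (log2 fold change -0.83 ± 0.12, adjusted p = 0.0121). Rad54b, its relative, was at 6.31, 7.80, 6.37 and 7.76 CPM in Dll1- cells and at 3.10, 3.82, 4.01 and 5.43 CPM in Dll1+ cells. All Dll1+ libraries were lower here (log2 fold change -0.80 ± 0.15, adjusted p = 0.0233), but Rad54b shares exon sequence with Fsbp on the same strand, so that its estimated counts are less certain. Rad52, an annealing protein, went the other way. It was at 20.8, 19.3, 16.1 and 16.2 CPM in Dll1- cells and at 20.5, 23.6, 17.5 and 20.2 CPM in Dll1+ cells, and the groups overlapped. Its log2 fold change, the highest of the members, was 0.18, with a 95% interval from -0.03 to 0.38 and an adjusted p of 0.202.

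The recombinase paralogs build the complexes that stabilise the recombinase filament, and they had a median log2 fold change of -0.19. Rad51b was at 2.32, 1.91, 5.08 and 2.01 CPM in Dll1- cells and at 1.26, 1.25, 3.04 and 1.73 CPM in Dll1+ cells of mice 1 to 4. Mouse 3 was the highest in both groups, and the log2 fold change of -0.61 ± 0.18 had an adjusted p of 0.0784. Rad51d was at 20.9, 21.5, 23.0 and 22.1 CPM in Dll1- cells and at 22.9, 30.3, 21.6 and 22.5 CPM in Dll1+ cells. Apart from the Dll1+ library of mouse 2 these values lay close together, with a fitted log2 fold change of 0.14 (95% interval -0.12 to 0.40, adjusted p = 0.407). Rad51c was at -0.47, Xrcc2 at -0.19 and Xrcc3 at -0.14 on the log2 scale, with adjusted p between 0.0851 and 0.389.

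The checkpoint kinases signal breaks and stalled forks. Chek1, the effector kinase of the replication checkpoint, was at 9.76, 8.18, 10.3 and 8.92 CPM in Dll1- cells of mice 1 to 4 and at 5.23, 4.97, 5.10 and 5.77 CPM in Dll1+ cells. The groups did not overlap, and the log2 fold change was -0.82 ± 0.12 (adjusted p = 0.0134). Atr, the kinase that activates Chek1, had a log2 fold change of -0.03 (95% interval -0.22 to 0.16). Atm, the kinase that responds to double-strand breaks, fell with -0.40 ± 0.09 (adjusted p = 0.0379). Chek2, its effector, was at -0.32 ± 0.10 (adjusted p = 0.0846).

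The Fanconi genes are given by complex. Both members of the ID complex, the pair of proteins that is ubiquitinated at a crosslink, fell. Fanci was at 8.05, 9.01, 13.7 and 11.2 CPM in Dll1- cells of mice 1 to 4 and at 4.39, 4.12, 5.57 and 6.84 CPM in Dll1+ cells. The Dll1+ libraries lay below all Dll1- libraries, with a log2 fold change of -1.01 ± 0.14 and an adjusted p of 0.0113. Fancd2, its partner, was at 7.88, 6.83, 7.62 and 8.06 CPM in Dll1- cells and at 4.88, 4.50, 4.12 and 6.01 CPM in Dll1+ cells. Again the groups did not overlap (log2 fold change -0.65 ± 0.13, adjusted p = 0.0287). Exons of Fanci and Fancd2 overlap those of Polg and Fancd2os on the opposite strand.

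Of the 9 genes of the core complex and its ubiquitin-conjugating enzyme, 2 fell. Fanca, a scaffold subunit, was at 20.9, 20.5, 24.3 and 19.6 CPM in Dll1- cells of mice 1 to 4 and at 14.4, 11.4, 11.9 and 10.9 CPM in Dll1+ cells. The groups were apart by more than the spread within either (log2 fold change -0.82 ± 0.10, adjusted p = 0.00914). Fancm, the translocase that anchors the core complex on DNA, fell with the smallest change of the 18, -0.32 ± 0.07 (adjusted p = 0.0364), and was lower by 0.30 to 0.33 on the log2 scale in every mouse. Ube2t, the conjugating enzyme, had a larger log2 fold change of -0.59 ± 0.17 at a lower level, 3.32 ± 0.656 CPM in Dll1+ cells (SD, n = 4), and did not pass the test (adjusted p = 0.0682). Fancl, the ligase subunit, was at -0.25 and Fancb at -0.39, with adjusted p of 0.106 and 0.173. The remaining subunits Fancc, Fance, Fancf and Fancg had log2 fold changes between -0.07 and 0.10. Their 95% intervals ran from -0.29 to 0.16, -0.24 to 0.11, -0.45 to 0.65 and -0.17 to 0.28.

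Among the nucleases that cut joined DNA molecules, 1 of 3 fell. Eme1, the partner of Mus81, was at 3.65, 3.78, 6.77 and 5.38 CPM in Dll1- cells of mice 1 to 4 and at 1.53, 1.86, 2.55 and 4.44 CPM in Dll1+ cells. It was lower in each mouse, by the least in mouse 4, and the log2 fold change was -0.99 ± 0.23 (adjusted p = 0.0413). Mus81, the catalytic subunit of the same enzyme, had a log2 fold change of -0.02 (95% interval -0.22 to 0.18, adjusted p = 0.885). Slx4, the scaffold that collects such nucleases, was at -0.31 ± 0.10 (adjusted p = 0.0920). Eme1 has exons opposite Lrrc59 and Mrpl27, and Mus81 opposite Efemp2.

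**Figure D2:**
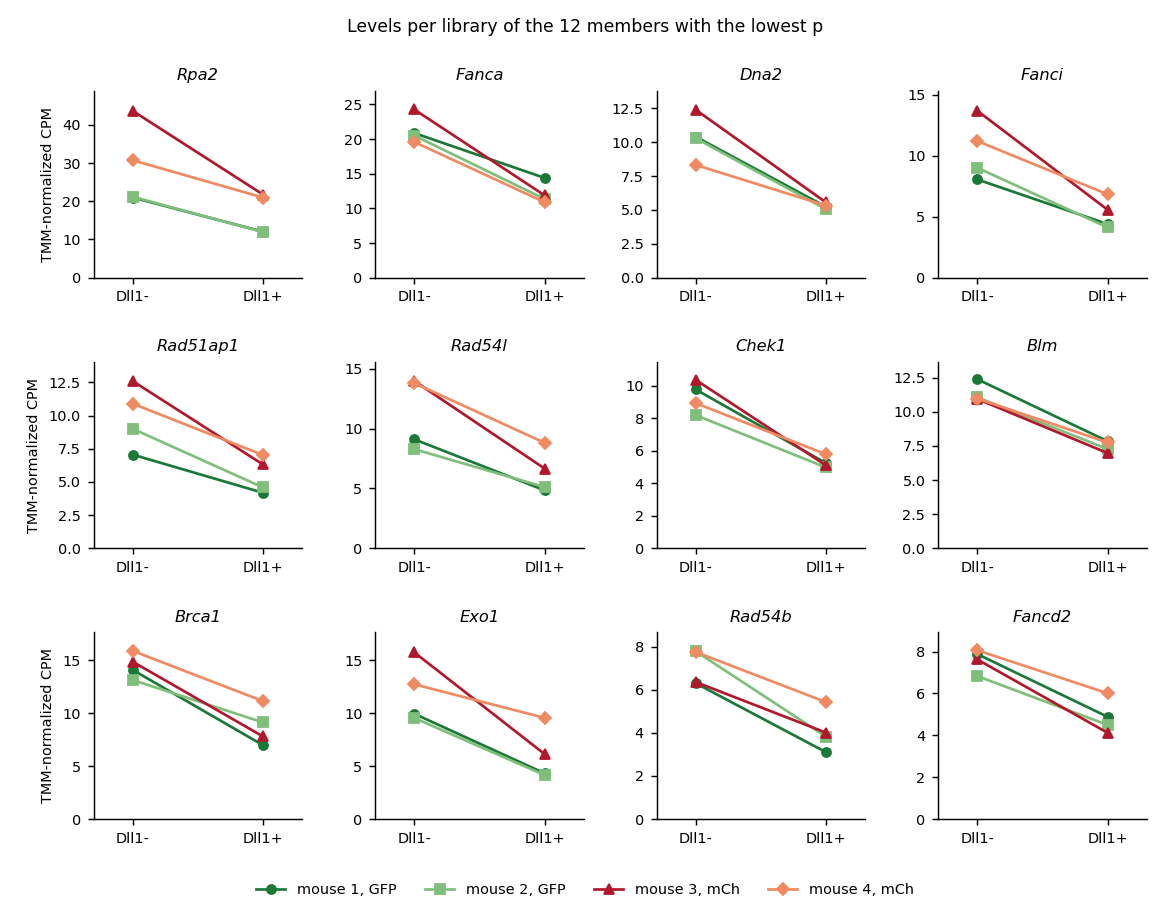
TMM-scaled CPM of the 12 members with the lowest p, one panel per gene with its own linear axis from 0, as lines that join the Dll1- and the Dll1+ library of each mouse. All lines fall, from 43.7 to 21.8 CPM for Rpa2 in mouse 3 for example, and mouse 4 often has the shallowest line.

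The size of the fall differed between mice. The median log2 difference of the 18 members was -0.83, -0.77, -0.96 and -0.51 in mice 1 to 4, and 14 of the 18 had their smallest fall in mouse 4. The 25 members that did not pass the test had medians of -0.19, -0.16, -0.18 and -0.08. A list of 25 proliferation genes, among them Mki67 and Top2a, moved in the same libraries. All 25 fell in Dll1+ cells, with median log2 differences of -1.30, -1.34, -1.20 and -0.77 in mice 1 to 4, so that mouse 4 had the smallest value for both lists. Mki67, a marker of cycling cells, was at 191, 189, 202 and 153 CPM in Dll1- and at 59.3, 58.2, 89.6 and 86.3 CPM in Dll1+ cells. The summed level of the list was 1217 to 2130 CPM in the Dll1- and 537 to 1002 CPM in the Dll1+ libraries, and all of its genes were detected in every library. The part of proliferation in the fall of the repair genes was not tested. Of 7 basal epithelial genes 3 rose in Dll1+ cells and 0 fell, and their summed level was 141 to 645 CPM in the Dll1- and 225 to 1481 CPM in the Dll1+ libraries. Of the 8 fibroblast genes, 8 had a negative fold change and 0 passed the test over 4 mice. The model with a Dll1 effect for each reporter takes its spread from all 8 libraries. There 4 of 8 fibroblast genes were lower in Dll1+ cells of the mCh mice, with a median log2 fold change of -2.40. So were 6 of 7 immune, 4 of 5 erythroid and 2 of 7 endothelial genes, against 6.25% of all tested genes. The part of this stromal RNA in the fall of the repair genes was not tested. Of the 17 members called without mouse 4, 15 were among the 18. The GFP libraries fitted alone gave 16 members lower, against 6.77% of tested genes. The mCh libraries fitted alone gave 0 members and 0 of all tested genes.

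Per kilobase of coding transcript, the members ranged over more than an order of magnitude. Rpa1 was the highest in Dll1- cells, at 24.3 CPM per kb, followed by Rpa3 at 18.5, Rad51d at 17.8 and Rpa2 at 16.1. Fancf at 0.750, Brca2 at 0.849 and Bard1 at 0.936 were the lowest. The 18 members that fell had a median level of 2.51 CPM per kb in Dll1- cells and a range from 0.936 to 24.3, and the other 25 had a median of 4.73 and a range from 0.750 to 18.5. In Dll1+ cells Rad51d was the highest member at 19.8 CPM per kb and Rpa1 stood at 19.1, so that their order was reversed.

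**Figure D3:**
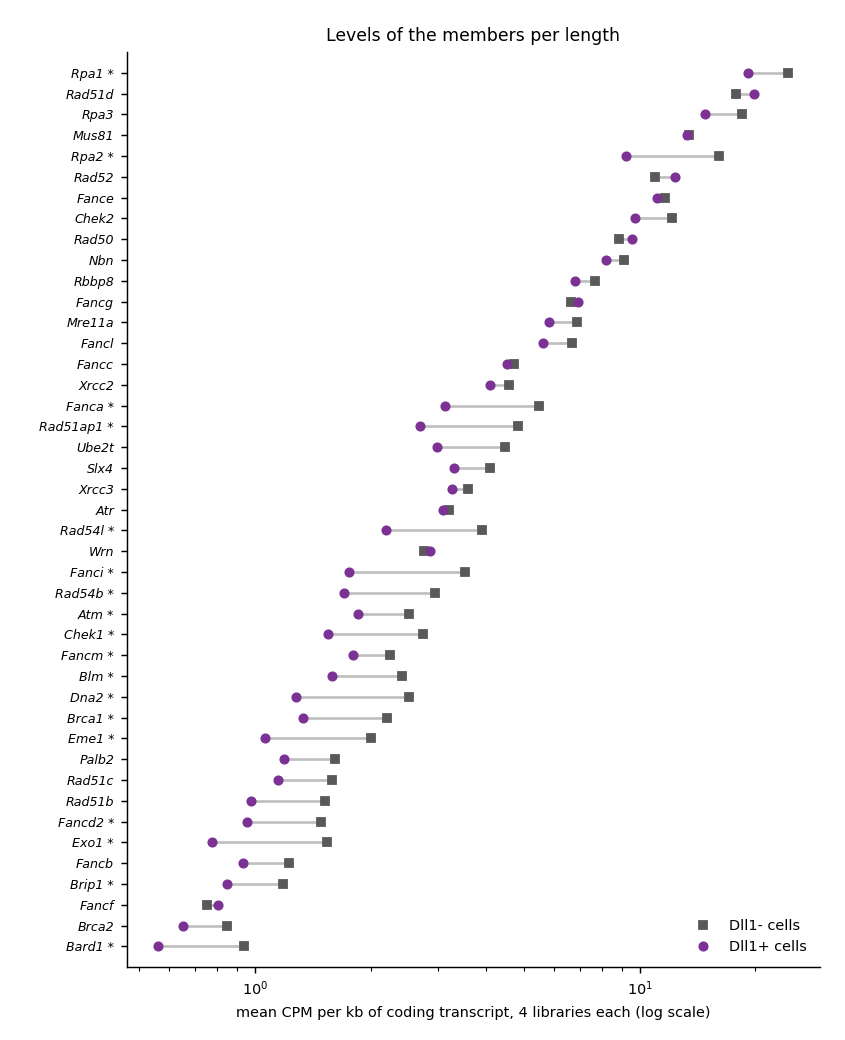
Mean level of each of the 43 members in Dll1- (squares) and Dll1+ cells (circles), as CPM per kb of the median coding transcript length on a log axis, 4 libraries each. Stars mark the 18 members that fell, which lie along the whole range, from Rpa1 at 24.3 to Bard1 at 0.936 CPM per kb in Dll1- cells.

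The next question was whether the knock-in and the BAC reporter gave the same picture. In the GFP mice 13 members were lower and 0 higher, against 4.84% of tested genes lower, 4.29% higher and 9.13% called in either direction. In the mCh mice 10 were lower and 0 higher, against 6.25% lower, 5.51% higher and 11.8% in either direction. Of these, 8 passed the threshold in both reporters, namely Rpa2, Dna2, Fanca, Fanci, Rad51ap1, Rad54l, Chek1 and Blm. The median log2 fold change of the members was -0.41 in the GFP and -0.34 in the mCh mice, and 34 of 43 members were negative in both. Taken separately, 37 members were negative in the GFP and 36 in the mCh mice, and of all 18322 tested genes 9365 and 8725. How many of all tested genes passed the threshold in both reporters, or were negative in both, was not counted. With 2 mice per reporter these counts were fragile. Without mouse 1 or mouse 2 the mCh reporter had 1 member lower, against 3.04% or 2.61% of tested genes. In the GFP reporter the median log2 fold change of the members was then -0.36 or -0.47, from 1 GFP mouse. Without mouse 3 or mouse 4 the median in the mCh reporter was -0.27 or -0.52, from 1 mCh mouse.

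The test of the difference itself called 0 of 43 members, against 0.071% of all tested genes, 0.0655% with a positive and 0.00546% with a negative difference. At an unadjusted p below 0.05 there were 2 members in edgeR, against 13.2% of tested genes, and 1 in DESeq2, against 9.75%, and DESeq2 also called 0. Both shares of members lie below those of all genes, and the 2 members are given as values. Rbbp8 was at 27.6, 25.1, 26.9 and 23.8 CPM in Dll1- cells of mice 1 to 4 and at 21.7, 17.3, 27.2 and 25.5 CPM in Dll1+ cells. It was lower in both GFP mice and not in the mCh mice, and the GFP minus the mCh effect was -0.50 ± 0.14 on the log2 scale (unadjusted p = 0.0108, adjusted p = 0.235). Chek2 was at 29.7, 28.4, 28.9 and 23.7 CPM in Dll1- cells and at 20.6, 19.6, 25.5 and 22.7 CPM in Dll1+ cells. Its difference between the reporters was -0.40 ± 0.13 (unadjusted p = 0.0205, adjusted p = 0.282). For the other 41 members the 95% interval of the difference spanned 0. The median width of all 43 intervals was 0.97 on the log2 scale, so that only differences as large as many of the effects themselves could have been seen.

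Between the lines, members differed in both directions, at a share below that of all genes in Dll1- cells and near it in Dll1+ cells. In Dll1- cells 4 members were higher and 5 lower in the mCh than in the GFP mice, 20.9% of members against 36.6% of all tested genes, 18.7% higher and 17.9% lower. In Dll1+ cells 8 were higher and 7 lower, 34.9% against 30.6%, of which 15.2% were higher and 15.4% lower. All 9 members called in Dll1- cells were also called in Dll1+ cells, in the same direction. Atm had the largest difference in Dll1- cells, at 34.7 and 36.4 CPM in the GFP mice and at 14.8 and 12.7 CPM in the mCh mice (log2 difference -1.37 ± 0.12, adjusted p = 0.00135). Its Dll1+ libraries followed, at 25.0 and 25.4 against 10.6 and 11.7 CPM. Atr, Fancm, Fancg and Wrn were also lower in the mCh mice in both cell groups, and Rpa2, Rpa1, Rad54l and Nbn were higher. In Dll1+ cells Exo1, Bard1, Eme1 and Mus81 were higher as well, and Rad50 and Xrcc2 lower. Other lists also differed between the same libraries. Of the 25 proliferation genes 20 were higher in the mCh mice in Dll1- and 22 in Dll1+ cells, and 0 were lower in either. Of the 8 fibroblast genes 8 were higher in Dll1- and 5 in Dll1+ cells. The part of proliferation and of stromal RNA in the differences of the members was not tested. Reporter construct, mouse and any handling in separate batches cannot be told apart here, since each line is 2 mice, and leaving out mouse 1 or mouse 2 left 0 calls in either cell group.

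**Figure D4:**
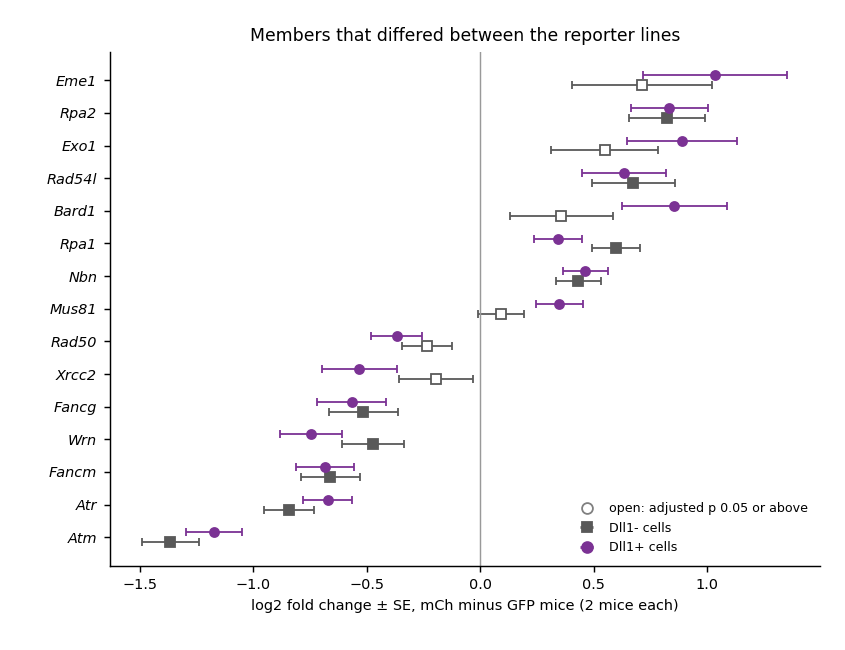
Log2 differences between mCh and GFP mice, with SE, for the 15 members past the threshold in Dll1- cells (squares) or Dll1+ cells (circles), 2 mice per line. Filled symbols have an adjusted p below 0.05, and Atm lies farthest left, at -1.37 in Dll1- cells.

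A wider list of the same pathway was read beside the members. Of 60 further homologous recombination and Fanconi genes, 16 fell in Dll1+ cells (26.7%) and 0 rose. Of all tested genes 7.04% fell and 6.98% rose. The median log2 fold change of the 60 genes was -0.11. All 16 were lower in 4 of 4 mice, the same mice on which they were called. The 6 with the lowest p are given here. Topbp1, an activator of Atr, was at 61.7, 64.5, 61.9 and 60.5 CPM in Dll1- cells of mice 1 to 4 and at 39.5, 38.1, 37.6 and 45.9 CPM in Dll1+ cells. The groups were far apart relative to their spread (log2 fold change -0.63 ± 0.08, adjusted p = 0.00879). Clspn, the adaptor through which Atr reaches Chek1, fell with a log2 fold change of -1.04 ± 0.13, and Timeless, a fork protection factor, with -0.82 ± 0.11. Cenps, a partner of Fancm that also sits at centromeres, fell with -1.01 ± 0.14, Usp1, which removes ubiquitin from the ID complex, with -0.45 ± 0.07, and Fignl1, which takes the recombinase off DNA, with -0.91 ± 0.16. Their adjusted p ran from 0.0102 to 0.0200.

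In the 4 other repair pathways, 8 of 54 genes fell and 3 rose, against 7.04% of all tested genes lower and 6.98% higher. Their median log2 fold change was -0.09. The lists are short, and counts of 1 or 2 genes in a list are given as values only. End joining, which rejoins breaks without a template, had 1 of 10 genes lower and 2 higher. Xrcc5, a subunit of the Ku end-binding complex, fell with a log2 fold change of -0.38 ± 0.09 (adjusted p = 0.0417), and Polm, a gap-filling polymerase, rose with 0.32 ± 0.06 (adjusted p = 0.0261). Mismatch repair had 1 of 7 genes lower, Msh6 with -0.37 ± 0.09 (adjusted p = 0.0458), and 0 higher. Base excision repair had 4 of 19 lower and 0 higher, with Fen1, a flap nuclease that is also used in replication, at -0.87 ± 0.09 (adjusted p = 0.00679) and Parp1, a sensor of single-strand breaks, at -0.51 ± 0.07 (adjusted p = 0.0113). Nucleotide excision repair had 2 of 18 lower and 1 higher, and the gene that rose was the damage sensor Ddb2, with 0.30 ± 0.07 (adjusted p = 0.0465). The difference between these lists and the 43 members was not tested.

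**Figure D5:**
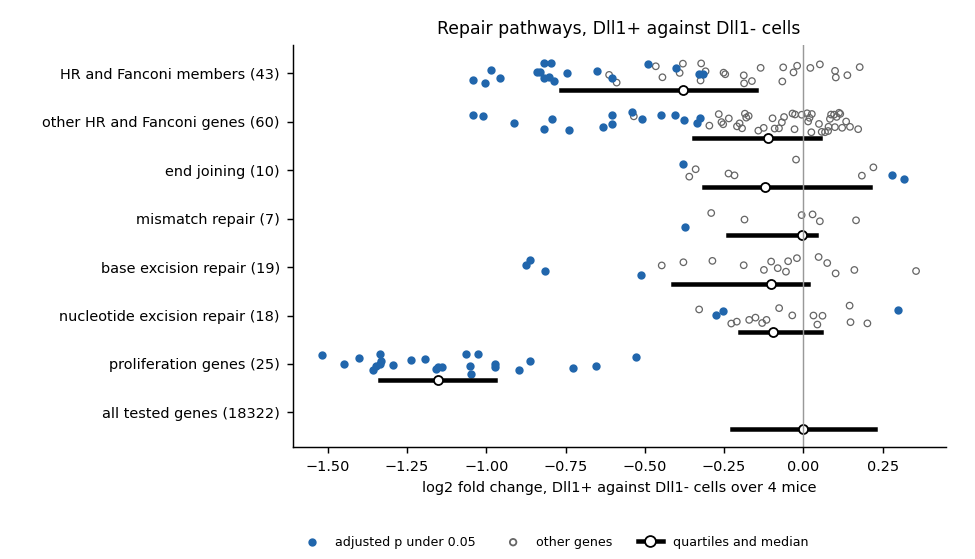
Log2 fold changes of Dll1+ against Dll1- cells over 4 mice for the 43 members, the other repair lists and 25 proliferation genes. Filled points have an adjusted p below 0.05, bars give the quartiles and open circles the median, which is -0.38 for the members, -0.11 for the 60 other genes of the pathway, -1.15 for proliferation genes and near 0 for all 18322 tested genes.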

How the data were processed

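RNA from 8 sorted tumor cell libraries of 4 mice was analysed. Reads of TruSeq Stranded libraries were assigned by the authors with salmon to the transcripts of GENCODE M20 (GRCm38.p6) and brought to gene level with tximport. The deposited table holds these estimated counts in whole numbers, with no scaling between libraries. The salmon version, and whether it used the strand, are not given in the sources used here, so 18 members with exons opposite another gene and 3 with exons shared on 1 strand are less certain. Among the members that fell, these include Rpa1 and Rad54b for the same strand. For the opposite strand they include Fanca, Rad54l, Fancm, Fanci, Fancd2 and Eme1. Symbols and positions came from GENCODE M21 (GRCm38), and promoter windows from RefSeq (GRCm38.p6).

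The robust quasi-likelihood F test of edgeR 4.0.16 (R 4.3.3) was applied to 18322 genes after TMM scaling and filterByExpr on Dll1 status, with Benjamini-Hochberg adjustment over all of them and a threshold of 0.05. The main model had 2 factors, Dll1 status and mouse, as in the study. Another model gave each reporter its own Dll1 effect, and a model of 4 groups compared the lines. SE is the log2 fold change divided by the square root of F, and intervals are at 95%. Pairs came from the mouse number in the labels. Deviations of libraries from the same mouse correlated at -0.05 in the GFP and 0.55 in the mCh mice. A prior count of 2 was added for log2 CPM of single libraries. Levels per length divide CPM by the median length of the coding transcripts of a gene. With 2 mice per reporter, p values measure only the spread between these animals. The alternatives were DESeq2 1.42.0, RLE scaling, other count filters, fits without the mouse, fits of 1 reporter or 1 cell group alone, and leaving out each mouse. The scripts were tested on simulated data.

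Members and lists were chosen with earlier results of these data known. All 43 members could be named. Per-library values with statistics were given for the 12 members with the lowest p in the main model, the 2 highest and 2 lowest fold changes, the member with the lowest p of each function not yet named, and the 2 members lowest in the test of the difference, which were chosen after their values were seen, as were the values of Atm. Of the other 60 genes of the pathway 6 were named, and up to 2 of each other repair list, by p. Some genes that this rule would name are not reported here.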

Additional observations from a re-analysis of the deposited data

Results flagged for a closer look

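In 10 of 129 groups of 4 values, 1 library lay farther from the other 3 than Dixon's test allows at the 95% level, which chance gives in about 1 of 20 groups. In mouse 3, the Dll1- library was high for Rad51b (5.08 CPM, the others at 1.91 to 2.32), Fance (24.7 CPM, the others at 20.1 to 20.3) and Ube2t (6.66 CPM, the others at 4.20 to 4.58). In mouse 1, Blm was high in the Dll1- library (12.4 CPM, the others at 10.9 to 11.1), and Rad51c (2.86 CPM, the others at 3.28 to 3.35) and Ube2t (2.34 CPM, the others at 3.56 to 3.71) were low in the Dll1+ library. In mouse 2, Rad51d (30.3 CPM, the others at 21.6 to 22.9) and Slx4 (21.6 CPM, the others at 17.6 to 18.3) were high in the Dll1+ library. Mouse 4 had a smaller log2 difference between its libraries than the other mice for Exo1 (-0.41, the others at -1.35 to -1.19) and for Atm (-0.12, the others at -0.52 to -0.47).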

How the results depend on the processing

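All 18 members that fell were lower in 4 of 4 mice, so leaving out a mouse could hardly change their direction. It stayed the same in every alternative run for the main comparison. Their calls depended on the mice and on a term for the mouse or the reporter. Without the replicate block (no mouse term) 0 members and 0 of all tested genes were called in the main comparison. In the GFP mice 0 members were called, against 1.5% of tested genes, and in the mCh mice 0, against 1.16%. With the reporter as a term, an alternative chosen after seeing the data, 16 were lower in the main comparison, against 4.18%. Leaving out 1 mouse gave 1 to 17 members in the main comparison (2 without mouse 1 and 7 without mouse 2), 0 to 16 in the GFP mice, 1 to 7 in the mCh mice, 0 to 14 between lines in Dll1- cells (14 without mouse 4) and 0 to 12 in Dll1+ cells (9 without mouse 4). These fits have fewer libraries, and where a line keeps 1 mouse, it is assumed to vary like the others. The mCh libraries fitted alone gave 0 calls, among the members and among all 19945 genes tested in that fit. The Dll1+ libraries fitted alone gave 6 members between lines, against 27.4% of tested genes. DESeq2 gave 26 in the main comparison, against 12.2% of tested genes lower, and the fit with no filter 16, against 3.78%. The difference between reporters had 0 members in every fit. Sign changes arose on leaving out 1 mouse, in members that were not called. Their log2 fold changes ranged from -0.043 to 0.079 for Wrn, -0.10 to 0.023 for Atr, -0.11 to 0.0063 for Fancc, -0.050 to 0.22 for Fancf, -0.026 to 0.12 for Fancg, -0.070 to 0.059 for Mus81 and, in the mCh mice, -0.014 to 0.081 for Rbbp8. The deepest library held 123907626 counts and the shallowest 27301396, so low members such as Fancf, at 0.805 to 1.92 CPM, are the least precise.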
